A study of Mus musculus with 9 samples.

Results

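The genes described here encode the machinery of mitosis: Cdk1 with its cyclins and activators, the mitotic kinases, the anaphase-promoting complex with separase and securin, condensin and other chromosome proteins, the transcription factors Foxm1 and Mybl2, the cytokinesis apparatus and proteins associated with the spindle. They form a named list of 48 genes that was matched by symbol, and all 48 were found among the 35006 gene symbols of the count files, 1 of them (Bora) under an older symbol. All 48 passed the filter on low counts. The list was assembled by function and not by a measured threshold, although earlier results of these data were known when it was chosen.

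RNA was taken from hair follicle stem cells of C57BL/6J mice, sorted as CD34+ alpha6+ cells from pools of 3 mice, CD34 being a surface glycoprotein of the bulge and alpha6 an integrin of the basal layer. In the dietary restriction group (DR, 4 libraries) individually housed mice were given each day 70% of the food that matched controls ate, and in the ad libitum group (AL, 5 libraries) individually housed mice ate without limit. The labels give no age, sex, irradiation state or hair cycle stage for any library, and do not say that each library came from its own pool. A p-value here therefore sets the difference between diets against library-to-library spread alone, and some of that spread may be technical. Gene counts ran between 26119459 and 33559312 per library. The bulge markers Cd34 and Krt15 were present throughout, with 479 ± 102 CPM in DR and 1080 ± 579 CPM in AL for Cd34 and 8500 ± 555 CPM in DR and 12400 ± 1810 CPM in AL for Krt15 (SD, n = 4 and 5). Levels are CPM, read counts put on a common library size and scaled by the TMM method, and fold changes are DR over AL on the log2 scale from edgeR's quasi-likelihood test, with Benjamini-Hochberg (BH) adjustment over 15447 genes and a threshold of 0.05.

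Hair follicle stem cells of the bulge are known to rest through telogen and to divide for a short time as a new hair grows. Transcripts of the mitotic machinery accumulate in G2 and M phase, when Foxm1 and the complex of Mybl2 with MuvB activate their promoters, and are low in resting cells, where MuvB joins the repressive DREAM complex. MuvB binds a short element named the cell cycle genes homology region (CHR), often found near CCAAT boxes. In RNA pooled from sorted cells, fewer mitotic cells and less mitotic RNA per cell cannot be told apart.

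The promoters of the list are shown because of these shared elements. RefSeq windows of the GRCm38.p6 assembly, covering 250 bases before to 50 bases after the annotated start, were matched for 37 of the 48 genes. The next lines give the 120 bases just upstream of the start for 9 genes, 5' to 3' on the gene's strand, with the CHR word TTTGAA, its variant form TTTAAA and also the box CCAAT in capitals on either strand (reverse complements: TTCAAA for the first word, ATTGG for the box). The first 7 are genes that fell in DR, Pttg1 is the gene that rose, and Fzr1 is one that did not pass the test.
Cdk1: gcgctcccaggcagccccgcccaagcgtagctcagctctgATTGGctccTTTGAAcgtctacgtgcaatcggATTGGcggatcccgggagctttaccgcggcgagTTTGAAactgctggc
Ccnb1: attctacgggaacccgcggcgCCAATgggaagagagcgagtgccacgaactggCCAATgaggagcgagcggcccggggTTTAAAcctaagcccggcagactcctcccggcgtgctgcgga
Cdc20: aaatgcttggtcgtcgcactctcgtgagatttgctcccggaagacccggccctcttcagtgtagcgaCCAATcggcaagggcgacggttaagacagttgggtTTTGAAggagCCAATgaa
Ube2c: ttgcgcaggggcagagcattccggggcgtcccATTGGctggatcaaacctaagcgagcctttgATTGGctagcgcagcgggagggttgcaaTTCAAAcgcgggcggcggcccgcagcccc
Espl1: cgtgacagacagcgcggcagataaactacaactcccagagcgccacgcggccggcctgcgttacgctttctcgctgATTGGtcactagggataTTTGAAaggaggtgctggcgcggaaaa
Top2a: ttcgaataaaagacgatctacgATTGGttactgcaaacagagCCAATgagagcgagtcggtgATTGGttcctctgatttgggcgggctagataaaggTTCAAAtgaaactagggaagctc
Ncapg: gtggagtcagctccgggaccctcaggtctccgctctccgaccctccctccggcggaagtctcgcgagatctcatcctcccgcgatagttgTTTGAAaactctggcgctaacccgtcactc
Pttg1: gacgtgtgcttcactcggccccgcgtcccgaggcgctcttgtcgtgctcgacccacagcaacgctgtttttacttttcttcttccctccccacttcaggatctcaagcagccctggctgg
Fzr1: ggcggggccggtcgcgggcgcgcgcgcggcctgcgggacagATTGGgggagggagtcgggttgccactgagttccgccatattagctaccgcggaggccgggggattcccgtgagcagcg
The windows lie at chr10:69352913-69353032 (minus strand) for Cdk1, chr13:100786487-100786606 (minus strand) for Ccnb1, chr4:118437344-118437463 (minus strand) for Cdc20 and chr2:164769809-164769928 (plus strand) for Ube2c. Those of the separase and chromosome genes lie at chr15:102296173-102296292 (plus strand) for Espl1, chr11:99024190-99024309 (minus strand) for Top2a and chr5:45669805-45669924 (plus strand) for Ncapg. The windows of the remaining pair lie at chr11:43425982-43426101 (minus strand) for Pttg1 and chr10:81378371-81378490 (minus strand) for Fzr1.

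Every one of the first 7 held a CHR word within 71 bases of its start. The printed genes are a selection and not a random sample of the matched promoters. Their contrast therefore does not show how often a CHR word goes with a fall. Of the 12 matched genes with no CHR word in the whole window 10 also fell, and none of those 10 is printed. In Cdk1 TTTGAA began 71 and 15 bases before the start, and in Ccnb1 TTTAAA began 42 bases before it, downstream of CCAAT words at 99 and 67 bases. The word began 18 bases before the start in Cdc20, 27 in Espl1 and 30 in Ncapg, and lay on the reverse strand at 29 bases in Ube2c and 23 in Top2a. The Pttg1 sequence held none of these words, and that of Fzr1 held a CCAAT on the reverse strand and no CHR word. A match is a description of the letters and does not show that a factor binds there.

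Over the whole windows TTTGAA was in 23 of the 37 promoters (62.2%), against 16.5% of 17492 RefSeq promoters of protein-coding genes, both strands searched. CCAAT was in 27 (73%), against 39% of all promoters. A CHR word (TTTGAA or its variant TTTAAA) together with the box CCAAT was in 22 (59.5%), against 10.3% of all. The palindrome TTTAAA taken alone was in 4 (10.8%), against 12.1% of all, and E2F-like words (TTGGCGC, its variant TTCGCGC or the longer form TTTGGCGC, which contains the first of them, and which can overlap a CCAAT box on the other strand) were in 8 (21.6%), against 5.12% of all. The 25 genes with a CHR word in the window had a median log2 fold change of -3.13 (-4.63 to -1.0), and all 25 fell. The 12 without one had a median of -1.78 (-5.48 to 0.44), and 10 of them fell. The ranges overlapped: Melk, Nek2, Cit and Troap fell by 3.83 to 5.48 on the log2 scale with no CHR word in the window.

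In DR libraries 45 of the 48 genes fell, 1 rose (Pttg1, the securin gene) and 2 did not pass the test (Fzr1 and Smc4). Of all genes tested 21.7% fell and 19.0% rose. The median log2 fold change of the 48 genes was -3.08, against -0.02 over all tested genes. At least 4-fold lower were 34 of the 48, a size reached in the downward direction by 2.34% of all tested genes. At least 16-fold lower were 15 genes, a size for which the share of all tested genes was not computed. In 36 of the 48 every DR library lay below every AL library, as it did for 17.0% of all tested genes. The smallest changes among genes that fell were those of Ncapd3 and Cdc25b, which stayed within a 2-fold difference.

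**Figure D1:**
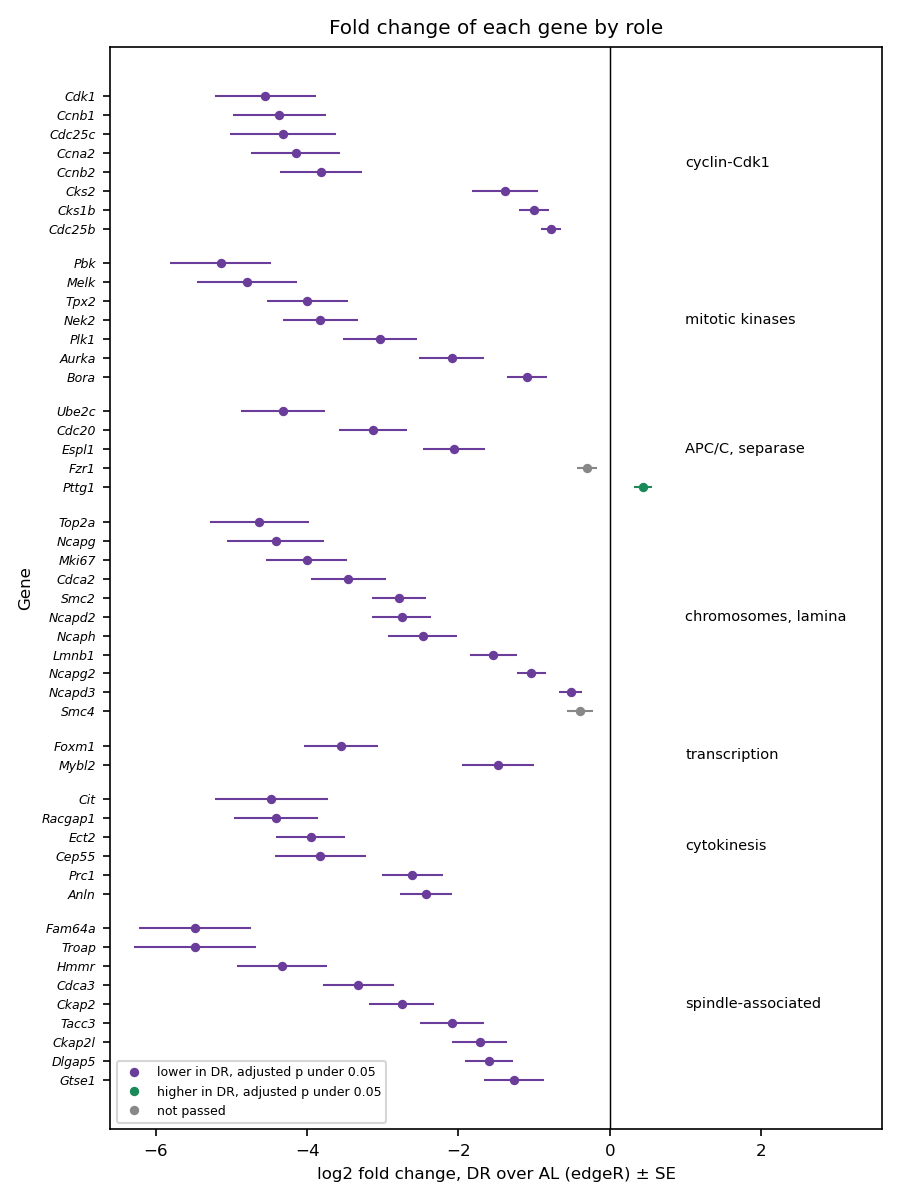
Log2 fold change, DR over AL, of each of the 48 genes (x axis; bars are SE) in rows grouped by role (y axis). Purple points fell, the green point (Pttg1) rose and the 2 grey points (Fzr1 and Smc4) did not pass; the values run between -5.48 and 0.44.

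All 8 genes of the Cdk1 module fell in DR, with a median log2 fold change of -3.99. Cdk1, the kinase that drives entry into mitosis, had 0.18, 2.09, 1.01 and 1.13 CPM in DR libraries 1 to 4, against 20.7, 41.2, 24.2, 40.9 and 5.34 CPM in AL libraries 1 to 5. DR library 1 was lowest, AL library 5 was the lowest of its group, and the groups did not overlap. The log2 fold change of Cdk1 was -4.55 ± 0.67 (SE, BH-adjusted p = 0.00046), a level 23.5-fold lower. Ccnb1, the B-type cyclin that activates Cdk1 in G2, had 0.144, 0.359, 0.676 and 0.226 CPM in DR libraries 1 to 4, against 6.57, 10.3, 5.77, 12 and 1.62 CPM in AL libraries 1 to 5. Every DR value was under 1 CPM and below the lowest AL value, and the 20.7-fold decrease (log2 fold change -4.37, SE 0.61, BH-adjusted p = 0.00036) rested on 41 reads over the 4 DR libraries. Ccna2, the cyclin of S and G2 phase, fell by 4.15 on the log2 scale, and Ccnb2 by 3.82. Copies of Ccnb1 and Ccnb2 annotated as pseudogenes exist in the mouse, so reads of these genes may be split.

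The activating phosphatases of Cdk1 differed in size of change. Cdc25c averaged 0.289 ± 0.182 CPM in DR and 5.91 ± 3.59 CPM in AL (SD, n = 4 and 5) and its log2 fold change was -4.32 ± 0.70 (SE, BH-adjusted p = 0.00078). Cdc25b averaged 74.6 ± 10.6 CPM in DR and 128 ± 20.5 CPM in AL, a change of -0.78 ± 0.13 (SE, BH-adjusted p = 0.0011), and its highest AL values were in libraries 1 and 5. The genes of the small Cdk-binding proteins had smaller fold changes than the cyclins. Their log2 fold changes were -1.005 ± 0.20 (SE, BH-adjusted p = 0.0022) for Cks1b and -1.38 ± 0.43 (SE, BH-adjusted p = 0.026) for Cks2. Cks2 had 2.05, 0.987, 0.977 and 1.1 CPM in DR libraries 1 to 4, against 2.17, 4.38, 3.49, 5.49 and 1.09 CPM in AL libraries 1 to 5. AL library 5 lay within the DR range, and the call of Cks2 was lost (adjusted p between 0.053 and 0.072) under limma-voom and without any single one of DR library 2, 3 or 4 or AL library 2 or 4.

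All 7 mitotic kinases and their cofactors fell, with a median log2 fold change of -3.83. Plk1, the polo-like kinase needed for centrosome maturation and mitotic exit, had 0.971, 1.35, 1.47 and 2 CPM in DR libraries 1 to 4, against 10.8, 16.6, 10.7, 18.8 and 2.56 CPM in AL libraries 1 to 5. All DR values were at or below 2 CPM and all AL values above it, and the log2 fold change was -3.04 ± 0.49 (SE, BH-adjusted p = 0.00081). Pbk, a kinase made in mitotic cells, had 0.108, 0.748, 0.301 and 0.548 CPM in DR libraries 1 to 4, against 11.5, 26.1, 14.5, 22.7 and 3.09 CPM in AL libraries 1 to 5. The separation of the groups was wider than for Plk1, with a 35.3-fold lower level (log2 fold change -5.14, SE 0.67, BH-adjusted p = 0.00024) and 53 reads in all DR libraries together. Melk, another kinase that peaks in mitosis, had 0.108, 0.718, 0.526 and 0.516 CPM in DR libraries 1 to 4, against 10.1, 20.4, 13, 20.4 and 2.3 CPM in AL libraries 1 to 5. No DR library reached 1 CPM of Melk and every AL library exceeded 2 CPM (log2 fold change -4.80, SE 0.66, BH-adjusted p = 0.00033).

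The Aurora A branch was graded. Tpx2, which activates Aurora A on spindle microtubules, fell by 3.997 on the log2 scale and Nek2, a kinase of centrosome separation, by 3.83. Aurka itself averaged 2.25 ± 0.0757 CPM in DR and 9.59 ± 5.1 CPM in AL (SD, n = 4 and 5), with a log2 fold change of -2.09 ± 0.43 (SE, BH-adjusted p = 0.003). The narrow DR range of 2.18 to 2.35 CPM held AL library 5, at 2.33 CPM. Bora, the cofactor that lets Aurora A activate Plk1, changed by -1.10 ± 0.27 (SE, BH-adjusted p = 0.0076), and AL library 5 again fell within the DR range.

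Among the 5 genes of the anaphase switch 3 fell, 1 rose and 1 did not pass. Ube2c, the ubiquitin-conjugating enzyme of the anaphase-promoting complex (APC/C), had 0.396, 0.868, 0.413 and 0.838 CPM in DR libraries 1 to 4, against 9.43, 17.5, 11.4, 22.3 and 3.16 CPM in AL libraries 1 to 5. Its groups did not overlap, and the level was 19.9-fold lower in DR (log2 fold change -4.32, SE 0.56, BH-adjusted p = 0.00022). Of the exon bases of Ube2c, 22.8% overlap Tnnc2 on the opposite strand, and the library kit does not mark strand. Cdc20, the coactivator that turns on the APC/C at metaphase, had 3.34, 3.11, 2.29 and 2 CPM in DR libraries 1 to 4, against 18, 32.1, 20.7, 39.8 and 6.85 CPM in AL libraries 1 to 5. The highest DR value was below the lowest AL value, that of library 5, and the log2 fold change was -3.13 ± 0.45 (SE, BH-adjusted p = 0.00039).

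Fzr1 (Cdh1), the coactivator that keeps the APC/C active in late mitosis and G1, had 32.4, 35.3, 41.6 and 36.2 CPM in DR libraries 1 to 4, against 40.5, 56.9, 44.2, 47.4 and 35.2 CPM in AL libraries 1 to 5. The groups overlapped, and the test was not passed, with a log2 fold change of -0.30 ± 0.13 (SE, BH-adjusted p = 0.091). Leaving AL library 5 out gave -0.38 ± 0.12 (SE, BH-adjusted p = 0.026), past the threshold. The count ratio of Cdc20 to Fzr1 was 0.103, 0.0881, 0.0552 and 0.0553 in DR libraries 1 to 4, against 0.443, 0.564, 0.469, 0.84 and 0.195 in AL libraries 1 to 5, with no overlap.

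Pttg1 (securin), which holds separase inactive until anaphase, had 42, 28.3, 33.9 and 40.1 CPM in DR libraries 1 to 4, against 23.9, 25.7, 29, 25.3 and 28.9 CPM in AL libraries 1 to 5. It rose by 0.44 ± 0.12 (SE, BH-adjusted p = 0.014) on the log2 scale, with DR library 2 inside the AL range, and it is named because it was the gene that moved the other way. This call held in all 19 alternatives to the test. Espl1 (separase), the protease that cleaves cohesin, averaged 9.51 ± 2.76 CPM in DR and 39.6 ± 20.4 CPM in AL (SD, n = 4 and 5), a change of -2.06 ± 0.41 (SE, BH-adjusted p = 0.0025), and AL library 5 lay within its DR range. The count ratio of Espl1 to Pttg1 was 0.156, 0.275, 0.35 and 0.295 in DR libraries 1 to 4, against 1.4, 2.58, 1.25, 1.99 and 0.406 in AL libraries 1 to 5. Espl1 thus had fewer reads than Pttg1 in all 4 DR libraries and in AL library 5. Annotated exons cover 8749 bases in Espl1 and 2000 bases in Pttg1. These ratios are of reads not corrected for length, and do not show which transcript was more numerous in any library.

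**Figure D2:**
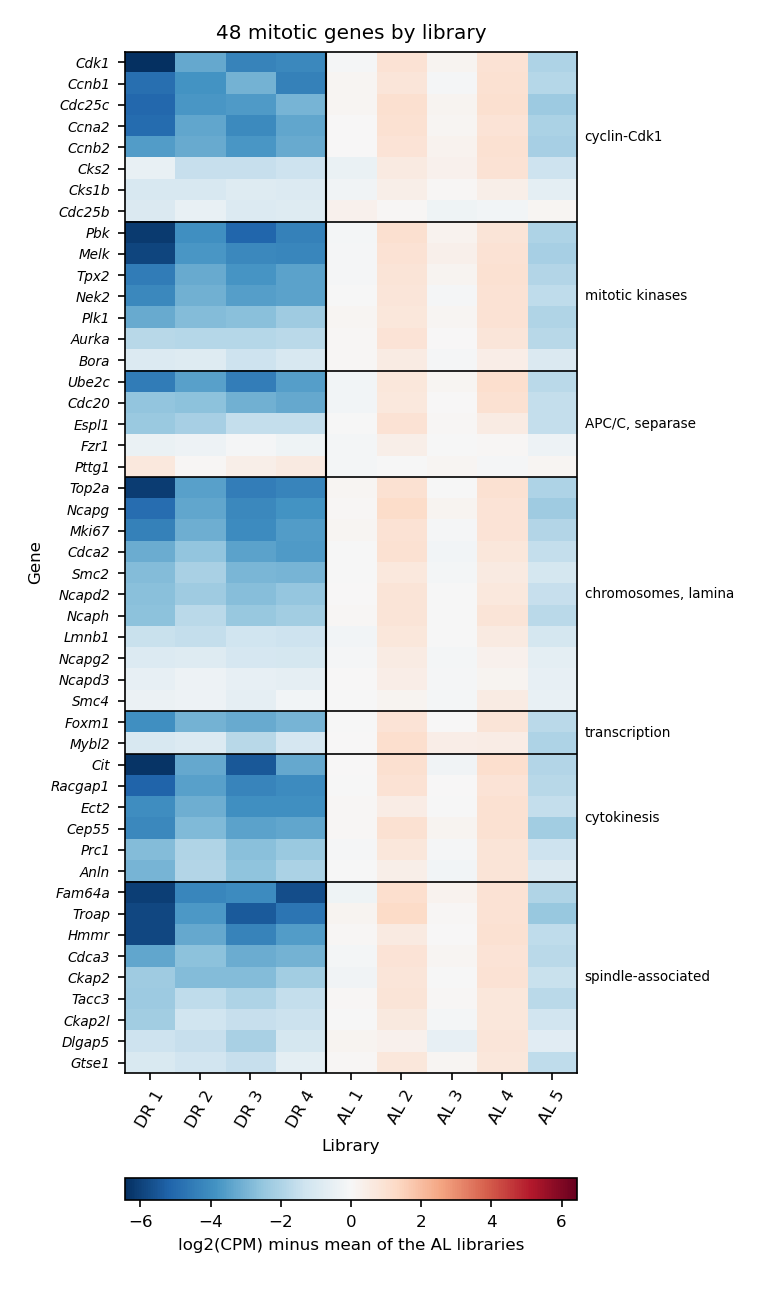
Level of each of the 48 genes (rows, grouped by role) in each library (columns, DR left of AL) as log2(CPM) minus the mean of the AL libraries, red above and blue below that mean. The DR columns are blue in nearly all rows apart from Pttg1, and the AL 5 column is paler blue in most rows.

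Of 11 chromosome and lamina genes 10 fell and Smc4 did not pass. Top2a, the topoisomerase that untangles sister chromatids, had 1.51, 9.66, 4.85 and 5.71 CPM in DR libraries 1 to 4, against 118, 213, 108, 213 and 27.2 CPM in AL libraries 1 to 5. DR library 2 was the highest of its group and still well below AL library 5, and the level was 24.8-fold lower in DR (log2 fold change -4.63, SE 0.65, BH-adjusted p = 0.00037). Mki67 (Ki-67), which coats mitotic chromosomes and is the usual marker of cycling cells, had 6.47, 15.4, 7.97 and 10.9 CPM in DR libraries 1 to 4, against 150, 259, 126, 251 and 36.7 CPM in AL libraries 1 to 5. The groups did not overlap and the log2 fold change was -4.01 ± 0.53 (SE, BH-adjusted p = 0.00027). Cdca2 (Repo-Man), which brings phosphatase PP1 to chromatin, fell by 3.46 on the log2 scale. Lmnb1 (lamin B1), of the nuclear lamina, averaged 12.6 ± 1.05 CPM in DR and 36.4 ± 16.2 CPM in AL (SD, n = 4 and 5) and fell by 1.54.

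Condensin compacts mitotic chromosomes. Its SMC2 and SMC4 core joins NCAPD2, NCAPG and NCAPH in condensin I, which reaches chromosomes after the nuclear envelope breaks down, or NCAPD3, NCAPG2 and NCAPH2 in condensin II, which is nuclear throughout the cycle. Ncapg had 0.432, 1.41, 0.789 and 1 CPM in DR libraries 1 to 4, against 15.7, 34.7, 17.3, 27.7 and 3.05 CPM in AL libraries 1 to 5. Every DR value was below the lowest AL value, and its log2 fold change was -4.42 ± 0.64 (SE, BH-adjusted p = 0.00043). The other condensin I subunits, Ncapd2 and Ncaph, changed by -2.75 ± 0.39 (SE, BH-adjusted p = 0.00038) and -2.47 ± 0.45 (SE, BH-adjusted p = 0.0015). For Ncaph AL library 5 matched the highest DR library.

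The condensin II subunits had smaller fold changes. Ncapg2 fell by 1.04 on the log2 scale with no overlap, and Ncapd3 by 0.52 with AL library 5 inside the DR range. The Ncapd3 call was lost without DR library 3 (adjusted p = 0.055) or DR library 4 (adjusted p = 0.059). Ncaph2, the kleisin of condensin II and not on the list, averaged 87.1 ± 6.56 CPM in DR and 89.9 ± 4.03 CPM in AL (SD, n = 4 and 5), a log2 fold change of -0.05 ± 0.08 (SE, BH-adjusted p = 0.67) that did not pass. The difference between the subunits of condensin I and II was not tested.

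The core pair had unequal fold changes. Smc4 had 79.8, 82.5, 69 and 89.6 CPM in DR libraries 1 to 4, against 100, 115, 93.3, 147 and 73.1 CPM in AL libraries 1 to 5. The groups overlapped, AL library 4 was highest and AL library 5 was second lowest of all 9 libraries, and the test was not passed, with a log2 fold change of -0.40 ± 0.17 (SE, BH-adjusted p = 0.089). Leaving AL library 5 out gave -0.51 ± 0.14 (SE, BH-adjusted p = 0.016), past the threshold. Smc2 averaged 6.25 ± 2.06 CPM in DR and 43.2 ± 18.4 CPM in AL (SD, n = 4 and 5), with a log2 fold change of -2.79 ± 0.36 (SE, BH-adjusted p = 0.00022). The count ratio of Smc2 to Smc4 was 0.0708, 0.113, 0.0735 and 0.0554 in DR libraries 1 to 4, against 0.389, 0.547, 0.394, 0.406 and 0.245 in AL libraries 1 to 5, with no overlap.

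Per kilobase of annotated exon, the level of Smc4 in CPM per kb was 15.4 ± 1.64 in DR and 20.3 ± 5.29 in AL, and that of Smc2 was 1.14 ± 0.376 in DR and 7.9 ± 3.37 in AL (SD, n = 4 and 5 here and for the next subunits). On this scale Ncapd2 was at 2.01 ± 0.3 in DR and 13.5 ± 6.66 in AL, Ncaph at 0.772 ± 0.222 in DR and 4.3 ± 2.28 in AL and Ncapg at 0.128 ± 0.0578 in DR and 2.79 ± 1.72 in AL. Ncapd3 was at 4.07 ± 0.285 in DR and 5.81 ± 1.31 in AL and Ncapg2 at 2.27 ± 0.237 in DR and 4.65 ± 1.35 in AL. Smc4 therefore had the highest mean of the 7 subunits in both diets. Ncaph2 was not put on this scale, although its mean in DR, 87.1 CPM, was above the 80.2 CPM of Smc4. In DR the condensin II subunits Ncapd3 and Ncapg2 followed Smc4 among the 7. Their means exceeded those of the condensin I subunits, although the ranges of Ncapg2 and Ncapd2 overlapped. In AL Ncapd2 came next, and its range overlapped that of Smc4. Exon lengths come from an annotation of GRCm38, while the reads were mapped to mm9, so levels between genes are approximate.

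**Figure D3:**
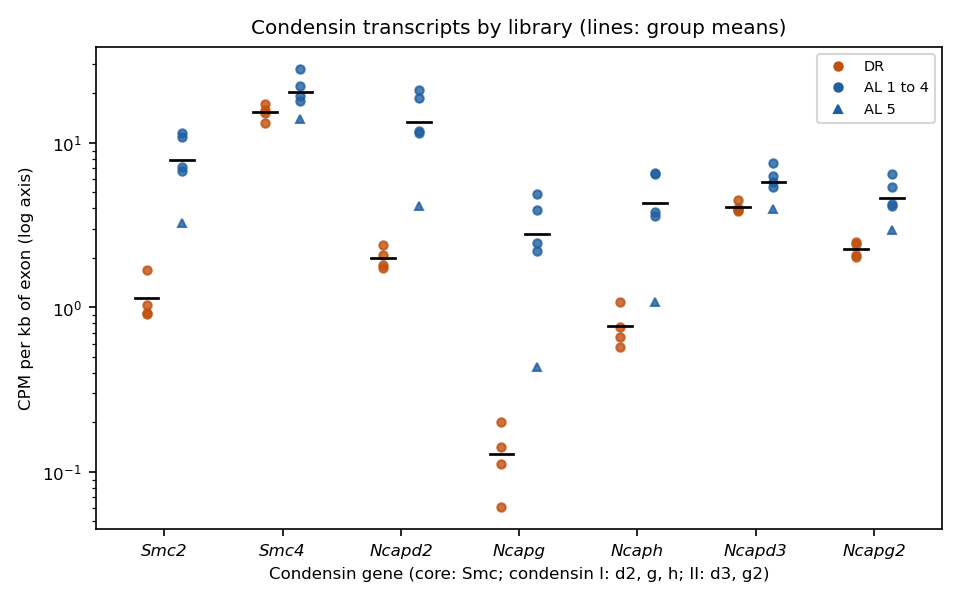
Level of 7 condensin transcripts in CPM per kilobase of exon (y axis, log scale) in the DR libraries (orange, left of each pair) and the AL libraries (blue, triangles for AL 5), with lines at the group means. DR and AL overlap for Smc4, Ncaph and Ncapd3 and are apart for Smc2, Ncapd2, Ncapg and Ncapg2.

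Both transcription factors of the list fell. Foxm1, the forkhead factor that activates G2 and M phase genes, had 1.87, 3.5, 3.04 and 3.68 CPM in DR libraries 1 to 4, against 29, 55.7, 30.8, 53.9 and 8.84 CPM in AL libraries 1 to 5. The groups did not overlap and the log2 fold change was -3.56 ± 0.49 (SE, BH-adjusted p = 0.00031). Mybl2 (B-Myb), the partner of MuvB in cycling cells, had 1.83, 2.03, 1.05 and 1.74 CPM in DR libraries 1 to 4, against 3.79, 8.16, 5.16, 5.22 and 0.903 CPM in AL libraries 1 to 5. AL library 5 was below all DR libraries, and the log2 fold change was -1.48 ± 0.48 (SE, BH-adjusted p = 0.029). This call was lost (adjusted p between 0.052 and 0.11) under limma-voom and without any single one of DR library 1, 3 or 4 or AL library 2 or 3.

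All 6 cytokinesis genes fell, with no overlap of the groups in any of them. Ect2, the exchange factor that switches on RhoA at the cleavage plane, had 1.47, 2.72, 1.54 and 1.55 CPM in DR libraries 1 to 4, against 26.3, 34.9, 24, 48.3 and 8.58 CPM in AL libraries 1 to 5. DR library 2 stood above the 3 others of its group, and the log2 fold change was -3.95 ± 0.46 (SE, BH-adjusted p = 0.00012). Racgap1, the centralspindlin subunit that recruits Ect2, had 0.791, 2.63, 1.54 and 1.77 CPM in DR libraries 1 to 4, against 29.5, 57.1, 31.1, 55.1 and 8.84 CPM in AL libraries 1 to 5. It was 21.3-fold lower in DR (log2 fold change -4.41, SE 0.55, BH-adjusted p = 0.00019). Cit, the citron kinase of the midbody, had 0.0719, 1.08, 0.188 and 1.06 CPM in DR libraries 1 to 4, against 11.1, 22.3, 9.42, 23.2 and 2.97 CPM in AL libraries 1 to 5. DR libraries 1 and 3 were the low ones, and the log2 fold change was -4.47 ± 0.75 (SE, BH-adjusted p = 0.00095). Cep55, which recruits the abscission machinery to the midbody, fell by 3.83 on the log2 scale. Prc1, the microtubule bundler of the central spindle, fell by 2.61 and Anln (anillin), the scaffold of the contractile ring, by 2.43.

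The 9 genes of spindle-associated and related proteins all fell, and the 2 largest decreases of the list were among them. Fam64a had 0.036, 0.299, 0.338 and 0.0645 CPM in DR libraries 1 to 4, against 5.6, 14.3, 7.81, 12.7 and 1.69 CPM in AL libraries 1 to 5. Only 22 reads over the 4 DR libraries stood against 1329 over the 5 AL libraries, and the level was 44.7-fold lower (log2 fold change -5.48, SE 0.74, BH-adjusted p = 0.00028). Troap, which codes for trophinin-associated protein, had 0.036, 0.389, 0.0752 and 0.161 CPM in DR libraries 1 to 4, against 6.75, 14.1, 6.27, 11.4 and 1.02 CPM in AL libraries 1 to 5. The groups did not overlap, and the log2 fold change was -5.48 ± 0.80 (SE, BH-adjusted p = 0.00045) on 21 DR reads. Without DR library 2, the highest of its group, it was -6.34.

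Hmmr, a microtubule-binding protein of the spindle, fell by 4.33 on the log2 scale and Cdca3 by 3.32. Ckap2 and Ckap2l, both spindle-binding proteins, fell by 2.75 and 1.72. Tacc3, which stabilises spindle fibres with clathrin, fell by 2.09 and Dlgap5 (HURP), a microtubule stabiliser near chromosomes, by 1.59. Gtse1, a microtubule-binding protein of G2 and M phase, had 4.64, 3.92, 3.27 and 5.97 CPM in DR libraries 1 to 4, against 9.75, 15.5, 10.3, 15.2 and 2.9 CPM in AL libraries 1 to 5. AL library 5 was below all DR libraries, and the log2 fold change was -1.27 ± 0.40 (SE, BH-adjusted p = 0.026). The Gtse1 call was lost (adjusted p between 0.05 and 0.081) under limma-voom and without any single one of DR library 1, 2 or 3 or AL library 2 or 4.

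The AL libraries were not alike. The median log2 CPM of the 48 genes was 1.152, 1.605, 1.393 and 1.522 in DR libraries 1 to 4, against 4.157, 5.031, 4.313, 4.985 and 2.737 in AL libraries 1 to 5. Their summed level was 394.1, 476.7, 402.3 and 452.5 CPM in DR libraries 1 to 4, against 1421, 2243, 1358, 2232 and 668.6 CPM in AL libraries 1 to 5. AL library 5 thus lay between the DR libraries and the other AL libraries. AL libraries 2 and 4 were the high ones, AL libraries 1 and 3 were lower and close to each other, and the DR libraries spread less than the AL libraries.

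Gene by gene the same order recurred. AL library 5 was the lowest AL library in 46 of the 48 genes, against 25.4% of all tested genes. AL libraries 2 and 4 were both above AL libraries 1 and 3 in 46 genes, against 15.3% of all tested genes. The exceptions to both counts were Pttg1 and Cdc25b. AL library 2 was the highest of all AL libraries in 26 genes and AL library 4 in 20. Within DR, library 1 was lowest in 30 genes and library 2 highest in 30. Shares of all tested genes were not computed for the highest AL library or for the order within DR. The 48 genes share their libraries, so the counts describe 5 AL and 4 DR libraries and are not independent of each other.

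**Figure D4:**
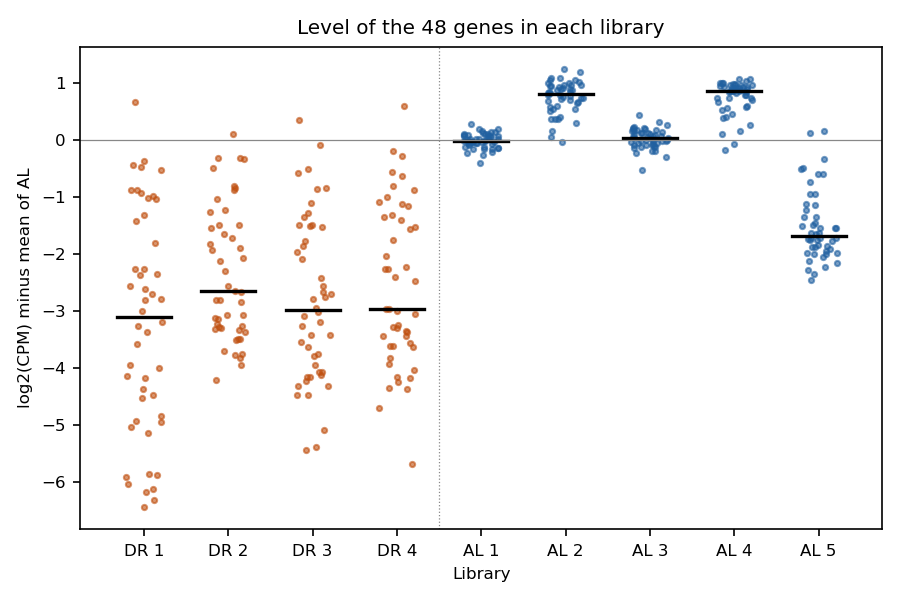
Level of the 48 genes in each library (x axis, DR left of AL) as log2(CPM) minus that gene's mean over the AL libraries (y axis), 1 point a gene and a line at the median. The 4 DR medians lie lowest, AL 5 lies between them and the other AL libraries, and AL 2 and AL 4 lie highest.

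Over all 48 genes the median of AL library 5 minus the mean of the other AL libraries was -2.11 on the log2 scale (0.01 over all tested genes), and its median distance above the DR mean was 1.33. For Cdk1 AL library 5 held 5.34 CPM and for Top2a 27.2 CPM, above every DR library. The 12 genes whose groups overlapped were Espl1, Fzr1, Pttg1, Ncaph, Ncapd3, Smc4, Cks2, Aurka, Bora, Tacc3, Gtse1 and Mybl2. Without AL library 5 every DR library lay below every remaining AL library in 46 genes, all but Pttg1 and Fzr1. The share of all tested genes was not computed without AL library 5. A gap between groups is easier to reach with fewer AL libraries, so this count has no background beside it.

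Some library measures and marker genes moved with these results. The share of reads on lines that name no gene was 25.9% to 26.8% in DR libraries, 26.6% in AL library 5 and 27% to 30.7% in the other AL libraries, with AL library 2 the highest. The TMM factor did not follow the mitotic levels: it was 0.955 to 1.034 in DR libraries, 0.9335 in AL library 5 and 0.9645 to 1.096 in the other AL libraries, where AL library 4 lay within the DR range. The summed level of 10 bulge markers was 21100 to 22500 CPM in DR and 27900 to 38700 CPM in AL, with AL library 5 at the top. Cd34 itself, on which the cells were sorted, had 427, 630, 414 and 444 CPM in DR libraries 1 to 4, against 1110, 531, 760, 975 and 2040 CPM in AL libraries 1 to 5, and AL library 5 was the highest. Of the 10 bulge markers 5 fell in DR and none rose. The summed level of 7 dermal fibroblast markers was 20 to 40.6 CPM in DR and 73.9 to 123 CPM in AL, and 2 of the 4 that could be tested fell and 1 rose. Col1a1, a collagen gene, averaged 4.88 ± 3.36 CPM in DR and 49.4 ± 11.8 CPM in AL (SD, n = 4 and 5), with every DR library below every AL library and AL library 5 the lowest of its group (log2 fold change -3.34, SE 0.40, BH-adjusted p = 0.00016). Col1a2, the other gene that fell, had its highest AL level in AL library 5, at 71.8 CPM. Pdgfra rose by 1.495 ± 0.409 on the log2 scale (SE, BH-adjusted p = 0.013), and Dcn did not pass. The fibroblast sum was mostly Col1a1 and Col1a2. Of the melanocyte markers 2 of the 5 that could be tested fell. Dct, an enzyme of melanin synthesis, had 1.91, 2.06, 1.43 and 1 CPM in DR libraries 1 to 4, against 6.14, 6.64, 6.67, 14 and 2.71 CPM in AL libraries 1 to 5. As for most mitotic genes the groups did not overlap and AL library 5 was the lowest of its group, and the level was 4.52-fold lower in DR (log2 fold change -2.17, SE 0.42, BH-adjusted p = 0.0021). Tyrp1, another melanin enzyme, averaged 0.22 ± 0.0895 CPM in DR and 0.997 ± 0.743 CPM in AL (SD, n = 4 and 5) and was 4.38-fold lower (log2 fold change -2.13, SE 0.59, BH-adjusted p = 0.015), with AL library 4 highest and AL library 5 within the DR range. Pmel (log2 fold change 0.10, SE 0.22, BH-adjusted p = 0.75) and Sox10 (log2 fold change -0.56, SE 0.36, BH-adjusted p = 0.23) did not pass. AL library 5 was not the lowest of its group for Pmel, Sox10 or Mitf. The sum of the 7 markers, 125 to 176 CPM in DR and 112 to 231 CPM in AL, was highest in AL library 5. It was mostly Mitf, which averaged 139 ± 24.7 CPM in DR and 149 ± 50.8 CPM in AL and did not pass. Tyr had 6 reads or fewer in each library. The hair matrix holds the dividing progenitors of the growing hair. Its 6 markers in the files summed to 65 to 97.6 CPM in DR and 65.8 to 94.5 CPM in AL. Of these the hair keratin gene Krt35 had at most 4 reads and Shh at most 2 reads in any library. Of the 4 that could be tested 3 did not pass. Dlx3 fell by 0.685 ± 0.164 on the log2 scale (SE, BH-adjusted p = 0.0068), with every DR library below every AL library. The sums of endothelial (5.25 to 42.4 CPM in DR, 3.24 to 21.8 CPM in AL), leukocyte (21.3 to 69.9 CPM in DR, 15.4 to 50.8 CPM in AL) and suprabasal (2230 to 5540 CPM in DR, 2000 to 4730 CPM in AL) markers overlapped between the diets. No endothelial or leukocyte marker passed, and of the 6 suprabasal markers Sbsn alone did. Sbsn rose by 0.39 ± 0.127 on the log2 scale (SE, BH-adjusted p = 0.029), with every DR library above every AL library. The part of these measures in the mitotic gene levels was not tested.

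Other genes of the same machinery were taken as 6 lists with 86 genes in all. Of these 33 fell, 22 rose and 31 did not pass, where 21.7% of all tested genes fell and 19.0% rose. Their median log2 fold change was -0.11, and 10 were at least 4-fold lower (background 2.34%). The 15 further regulators of Cdk1 had 7 that fell, 3 that rose and a median of -0.16. Ccnf (cyclin F) changed by -2.18 ± 0.36 (SE, BH-adjusted p = 0.00083), and Pkmyt1, the kinase that inhibits Cdk1, by -1.25 ± 0.19 (SE, BH-adjusted p = 0.00059). Ppp2r2d, a B55 subunit of the phosphatase that opposes Cdk1, rose by 0.55 ± 0.08 (SE, BH-adjusted p = 0.00051). Ccnh and Mnat1, of the Cdk-activating kinase, and the phosphatase gene Ppp1cc had the largest p-values, with log2 fold changes of -0.12, -0.11 and 0.05.

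Of 16 core subunits and enzymes of the APC/C 3 fell, 3 rose and 10 did not pass, with a median of -0.10. Both counts were near the shares over all tested genes (21.7% fell, 19.0% rose). Anapc16 rose by 0.64 ± 0.10 (SE, BH-adjusted p = 0.00058) and Anapc2, the cullin subunit, by 0.48 ± 0.08 (SE, BH-adjusted p = 0.00094), while Anapc13 changed by -0.65 ± 0.14 (SE, BH-adjusted p = 0.0042). Anapc5, Cdc27 and Ube2d1 had log2 fold changes between -0.055 and -0.004 and did not pass. Cdc20 and Ube2c, by comparison, fell by 3.13 and 4.32 on the log2 scale, and the difference was not tested.

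Cohesin, which holds sister chromatids together until separase cuts it, had 5 genes that fell and 5 that rose of 13, with a median of 0.20. Cdca5 (sororin), which protects cohesion in G2, changed by -3.90 ± 0.55 (SE, BH-adjusted p = 0.00037). Esco2, the acetyltransferase that sets cohesion in S phase, was the other gene of this list at least 4-fold lower, at -4.26 ± 0.72 (SE, BH-adjusted p = 0.001). Its relative Esco1 rose by 0.71 ± 0.09 (SE, BH-adjusted p = 0.00018) and the loader subunit Mau2 by 0.71 ± 0.10 (SE, BH-adjusted p = 0.00045). The ring genes Rad21 and Smc3 and the subunit Stag1 had log2 fold changes of 0.15 to 0.20 and did not pass.

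Of 10 further condensin, lamin, topoisomerase and chromosome genes 4 fell and 3 rose, with a median of -0.28. Kif22 and Kif4, the chromokinesins, changed by -4.16 ± 0.60 (SE, BH-adjusted p = 4e-04) and -3.33 ± 0.51 (SE, BH-adjusted p = 0.00057), and Banf1, which rejoins the nuclear envelope to chromatin, by -1.01 ± 0.10 (SE, BH-adjusted p = 5.1e-05). Lmna, Top1 and Ncaph2 did not pass. Among 12 MuvB, DREAM and E2F genes 4 fell and 4 rose, with a median of -0.06. Rbl2 (p130), the pocket protein of DREAM in resting cells, averaged 159 ± 31 CPM in DR and 69.8 ± 10.2 CPM in AL (SD, n = 4 and 5), which corresponds to 1.19 ± 0.15 (SE, BH-adjusted p = 0.00018) on the log2 scale. Tfdp2, an E2F dimer partner, rose by 1.61 ± 0.15 (SE, BH-adjusted p = 4.3e-05) and the MuvB subunit Lin52 by 1.08 ± 0.14 (SE, BH-adjusted p = 0.00021). The 4 that fell include the relatives of Rbl2 and Tfdp2. Rbl1 changed by -1.04 ± 0.235 (SE, BH-adjusted p = 0.005) and Tfdp1 by -0.77 ± 0.147 (SE, BH-adjusted p = 0.002). E2f5 changed by -0.43 ± 0.103 (SE, BH-adjusted p = 0.0065) and Mybl1 by -0.75 ± 0.238 (SE, BH-adjusted p = 0.027). The MuvB genes Lin9 and Rbbp4 and the E2F gene E2f4 did not pass.

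The list of 20 furrow and abscission genes had 10 that fell, 4 that rose and a median of -0.21. At least 4-fold lower were Aurkb, the kinase of the chromosomal passenger complex, at -4.69 ± 0.73 (SE, BH-adjusted p = 0.00064), Kif23, the kinesin partner of Racgap1 in centralspindlin, at -4.14 ± 0.57 (SE, BH-adjusted p = 0.00032), and Diap3, a formin, at -3.37 ± 0.39 (SE, BH-adjusted p = 0.00011). Kif20a and Kif20b, kinesins of the central spindle, changed by -2.90 ± 0.52 (SE, BH-adjusted p = 0.0014) and -2.75 ± 0.44 (SE, BH-adjusted p = 0.00071). Rock2, Chmp2a and Pdcd6ip, which serve contractility and membrane scission in many processes, had log2 fold changes of -0.04, 0.12 and 0.14 and did not pass.

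**Figure D5:**
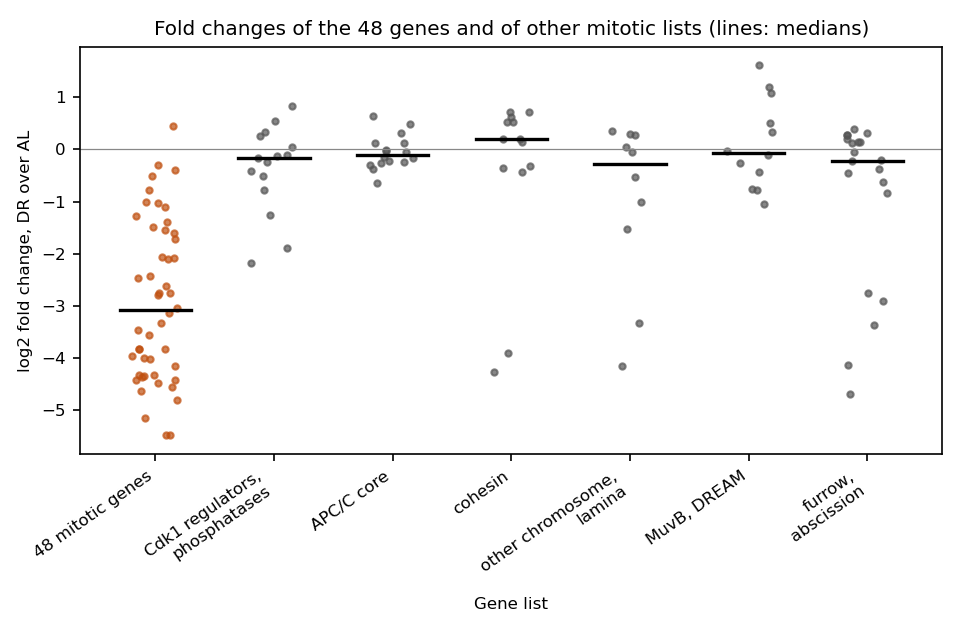
Log2 fold change, DR over AL (y axis), of the 48 genes (left) and of the 6 lists of further genes of the same machinery (x axis), 1 point a gene and a line at the median. The median of the 48 genes is -3.08, and those of the 6 lists run between -0.28 and 0.20.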

How the data were processed

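RNA-seq libraries of sorted CD34+ alpha6+ cells (4 DR, 5 AL) were single reads of 51 cycles from a kit that does not mark strand, per the labels' protocols. The deposited files hold the authors' raw read counts per gene symbol, with no normalization. The tools named are HTSeq 0.11.2, TopHat2 2.1.0, Bowtie and FastQC 0.11.5, and the genome build is mm9, per the submitters' processing notes. Annotation and counting settings: not given in the sources used here. The 6 lines that name no gene held 25.9% to 30.7% of the reads and stayed out of library sizes and tests.

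In R 4.3.3, edgeR 4.0.16 was used with filterByExpr by group, TMM factors, a quasi-likelihood fit on diet and two-sided tests with Benjamini-Hochberg adjustment over 15447 genes. The procedure was tested on simulated data. The SE of a fold change was derived from the test, as the absolute log2 fold change over the square root of the F statistic. Log2 CPM used a prior count of 2. limma 3.58.1, DESeq2 1.42.0, other scalings, filters, a replicate block and the omission of each library were alternatives. No library was a copy of another: within groups, pairs differed with a chi-square of 24.6 to 110 per degree of freedom.

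Members, lists and tests were chosen with earlier results of these data known, so the direction of the 48 genes is not independent evidence. Values in every library are given for 8 core genes (Cdk1, Ccnb1, Plk1, Cdc20, Top2a, Mki67, Foxm1 and Ect2), for the 2 genes of each role with the largest change and for genes that did not pass. Other lists are named by their 3 smallest and 3 largest p-values. Pttg1, Cks2, Gtse1, Esco2, Kif20a, Kif20b and the markers Col1a1, Col1a2, Pdgfra, Dcn, Dct, Tyrp1, Mitf, Pmel and Sox10 were added after their values were seen. So were Rbl1, Tfdp1, E2f5, Mybl1 and the markers Dlx3 and Sbsn. GENCODE exons of GRCm38 served for lengths and overlaps only: 16 of the 48 genes share exon bases with another gene, 13 of them on the opposite strand. Their counts may include reads of the other gene, or may lack reads that could not be assigned to a single gene. Promoters are RefSeq windows of GRCm38.p6. Ccna2, Cdc25c, Tpx2, Bora, Pbk, Smc4, Cdca2, Lmnb1, Foxm1, Dlgap5 and Fam64a were not matched. Protein sequences were not used here.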

Additional observations from a re-analysis of the deposited data

Results flagged for a closer look

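Of 96 sets of values (the 48 genes in each diet), 3 held a library far from the others of its group, by a gap that exceeds Dixon's critical value for 4 libraries. Chance alone gives about 1 in 20 sets. Cks2 had 2.05 CPM in DR library 1, where the other DR libraries had 0.977 to 1.1 CPM (gap 0.889 of the range). Smc2, of the condensin core, had 9.31 CPM in DR library 2 and 4.97 to 5.65 CPM in the other DR libraries (0.843 of the range). Ect2, the RhoA activator, had 2.72 CPM in DR library 2 and 1.47 to 1.55 CPM in the others (0.941 of the range). All 3 values were the highest of the DR group. Those of Smc2 and Ect2 remained below every AL library, and that of Cks2 was above AL library 5. No set of AL values was singled out in this way.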

How the results depend on the processing

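Of the 48 genes 41 to 47 fell over the 19 alternatives (45 in the test as reported), and 1 rose in each. The median log2 fold change, -3.08 as reported, ran between -3.33 and -2.83 when single libraries were left out (lowest without AL library 5, highest without AL library 4). With the replicate number as a block it was -3.3, and 47 genes fell. Number 5 occurs in AL alone, so the block gives AL library 5 a term of its own. Like the omission of AL library 5, where 47 genes also fell, this fit compares the diets without that library. The numbers do not appear to pair the libraries: the deviations of DR and AL libraries with the same number correlated at 0.039, 0.132, 0.228 and 0.029 across the genes tested, and number 3 alone correlated best with its own number. Over all tested genes 6290 were called, and 5176 to 6954 under the alternatives. No gene of the list reversed, and Cks2 and Mybl2 were not tested under the stricter filter. The calls lost for Cks2, Mybl2, Gtse1 and Ncapd3 are given above. Fzr1 passed with the block (adjusted p = 0.03) and without AL library 5. Smc4 passed with the block (adjusted p = 0.0045), with limma's quality weights (adjusted p = 0.049) and without AL library 5. Because the block also sets AL library 5 aside, it and the omission of that library are not separate support for these calls. The count of genes whose groups did not overlap was 35 to 38 by scaling and filter and 36 to 46 when single libraries were left out. In the test as reported every DR library lay below every AL library for 17.0% of all tested genes. That share was not computed under the alternatives. AL library 5 was the lowest AL library in 44 to 46 genes. The causes were not tested. Depth limits the largest folds: Fam64a, Troap, Cdc25c and Ccnb1 had 22, 21, 35 and 41 reads over all DR libraries.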
